A study of Mus musculus with 6 samples.

Results

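The AP-1 transcription factors were followed in mouse dermal fibroblasts on substrates of different stiffness. The group holds 10 genes, taken by symbol from the count table after its Ensembl identifiers were mapped to mouse symbols: the FOS genes Fos, Fosb, Fosl1 and Fosl2, the JUN genes Jun, Junb and Jund, and the related Atf3, Batf3 and Maff. All 10 were found among 57010 identifiers, and 9 passed the filter on low counts that left 16093 genes for testing, the exception being Batf3. RNA was sequenced from ear fibroblasts kept for 3 days on polyacrylamide gels of 1 kPa or 20 kPa or on glass, the control, with 2 libraries per group and 6 in all. The study asked how matrix stiffness bears on the epigenetic state when fibroblasts are turned into neurons, and the labels of these libraries name no reprogramming factor. Polyacrylamide is a water-swollen polymer that cells do not digest, and it can be made soft or firm, whereas glass hardly yields at all. Strain, age and sex of the mice are not in the labels, nor is it said that 2 libraries of one substrate stem from different mice or dishes. The p-values therefore cover the spread among these libraries alone, and that spread may be technical.

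AP-1 is a pair of basic leucine zipper proteins. JUN proteins can pair with themselves or with FOS proteins, which need a partner, and the pair binds the DNA letters TGANTCA, the TPA response element. Fos and Fosb are classic immediate early genes, switched on within minutes of serum or growth factors and off again soon after, whereas Jund and Fosl2 transcripts last longer. In fibroblasts AP-1 is known for driving matrix metalloproteinases, cytokines and entry into the cell cycle. ATF3 and BATF3 are relatives that pair with JUN proteins, and MAFF is a small MAF protein that lacks an activation domain of its own and pairs with CNC factors such as NRF2. The activity of all these proteins also depends on phosphorylation and turnover, which RNA counts do not measure.

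Library totals ran from 17669006 to 21350111 counts, so the floor of 3 counts lay between 0.139 and 0.174 CPM (counts scaled to library size, with TMM factors), and mitochondrial genes took 1.25% to 1.55% of counts. Replicate libraries were not copies of one another, since their counts differed beyond sampling noise in each group. Chi-square over its degrees of freedom was 10.5 on 1 kPa, 3.61 on 20 kPa and 39.7 on glass. The fit takes its spread from the 3 groups together, so p-values and SEs against glass do not reflect the wider spread of glass on its own. All 14 fibroblast markers were detected, with a summed level of 52100 to 53200 CPM on 1 kPa, 54100 to 56900 CPM on 20 kPa and 37900 to 40700 CPM on glass. By gene 10 were higher and 3 lower on each gel than on glass, beside the shares of all genes given below. Dcn had 3540 ± 320, 2910 ± 66 and 157 ± 19 CPM in the order 1 kPa, 20 kPa and glass, and Vim ran the other way at 2190 ± 84, 2720 ± 57 and 4190 ± 140 CPM. Keratinocyte markers summed to 30.1 to 33 CPM on 1 kPa, 29.7 to 30.9 CPM on 20 kPa and 25 to 28.5 CPM on glass, most of it Trp63 on the gels (23.3 ± 1.7 and 22.5 ± 0.21 CPM, against 11.1 ± 1.8 CPM on glass). Both Krt5 and Krt14 fell on the gels, with Krt5 at 0.133 ± 0.05, 0.413 ± 0.17 and 2.68 ± 0.39 CPM and Krt14 at 0.664 ± 0.25, 0.292 ± 0.07 and 3.13 ± 0.57 CPM in the order 1 kPa, 20 kPa and glass. Of 6 tested keratinocyte markers 1 was higher and 3 lower on 1 kPa and 1 higher and 4 lower on 20 kPa than on glass (median log2 fold change -1.17 and -1.21). Of all tested genes, 23.0% were higher and 22.0% lower on 1 kPa than on glass. On 20 kPa 22.3% were higher and 19.6% lower. The part of these markers in the AP-1 values was not tested. In whole cultures, fewer cells of a type and less RNA per cell cannot be told apart.

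The windows of 250 bases upstream of the RefSeq start are shown for Fos, Fosb, Junb and Jun, because the first 3 share one direction against glass and Jun the other. RefSeq windows (GRCm38.p6) were matched for 9 of the 10 members, 11 windows in all since Maff has 3 starts. Capitals mark matches on either strand to TGACG, the half-site of the cyclic AMP response element, to TATAAA, or to TGACATCA, a variant of the TPA response element known from the JUN promoter.
Fos, chr12:85473640-85473889, plus strand: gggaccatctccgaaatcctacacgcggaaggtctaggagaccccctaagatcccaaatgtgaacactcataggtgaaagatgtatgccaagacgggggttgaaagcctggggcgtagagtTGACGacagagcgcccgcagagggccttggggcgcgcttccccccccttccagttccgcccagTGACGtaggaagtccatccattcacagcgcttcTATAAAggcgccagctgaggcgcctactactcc
Fosb, chr7:19310046-19310295, minus strand: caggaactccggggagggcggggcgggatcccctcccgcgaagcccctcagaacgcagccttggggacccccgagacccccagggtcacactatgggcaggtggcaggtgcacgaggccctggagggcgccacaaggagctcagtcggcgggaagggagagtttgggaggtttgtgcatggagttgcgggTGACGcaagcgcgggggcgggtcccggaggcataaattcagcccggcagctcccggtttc
Junb, chr8:84978749-84978998, minus strand: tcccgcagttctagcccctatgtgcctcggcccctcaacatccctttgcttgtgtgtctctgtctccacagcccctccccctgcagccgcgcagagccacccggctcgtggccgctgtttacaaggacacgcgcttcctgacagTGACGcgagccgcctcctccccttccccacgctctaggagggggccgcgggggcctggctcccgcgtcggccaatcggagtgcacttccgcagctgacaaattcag
Jun, chr4:95052223-95052472, minus strand: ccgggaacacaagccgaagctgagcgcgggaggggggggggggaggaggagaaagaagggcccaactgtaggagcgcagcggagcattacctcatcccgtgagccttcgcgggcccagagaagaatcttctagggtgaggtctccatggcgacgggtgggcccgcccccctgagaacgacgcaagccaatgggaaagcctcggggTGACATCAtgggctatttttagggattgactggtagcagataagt

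Positions are those of the first letter of a match, with -1 the last base before the start. The Fos window held TGACG at -129 and -66 and TATAAA at -33. The Fosb window held TGACG at -60 and the Junb window at -106. Among members that were not higher on the gels, Atf3 had a TGACG match on the minus strand at -7, the second Maff start had matches at -29 and -26 and the third Maff start one at -122. The Jun window held no TGACG but had TGACATCA at -45, and so did the window of the third Maff start at the same position. TGACATCA was added to the search after the windows had been looked at. In 32851 windows of the same length, TGACG was present in 17.8%, TATAAA in 12.4% and TGACATCA in 2.93%. The full element TGACGTCA, present in 1.55% of all windows and overlapping TGACG by its letters, was found at the second Maff start. The letters TGANTCA (6.75% of windows) and the serum response factor's CArG box (1.47%) were in none of the 11 windows, and GGGCGG, the GC box (32.7%), was in those of Fos, Fosb, Fosl2, Jun, Atf3, Batf3 and Maff. Windows follow RefSeq starts, which need not be the gene ends given here. The Jund window ends at 70697738 on chromosome 8, upstream of the annotated gene start at 70698949, so the bases just before that start lay outside it. No sequence beyond the windows was searched. A CArG box or TGANTCA match beyond the windows, at Fos or another member, could therefore not have been found. These are matches of letters and no measure of binding.

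**Figure D1:**
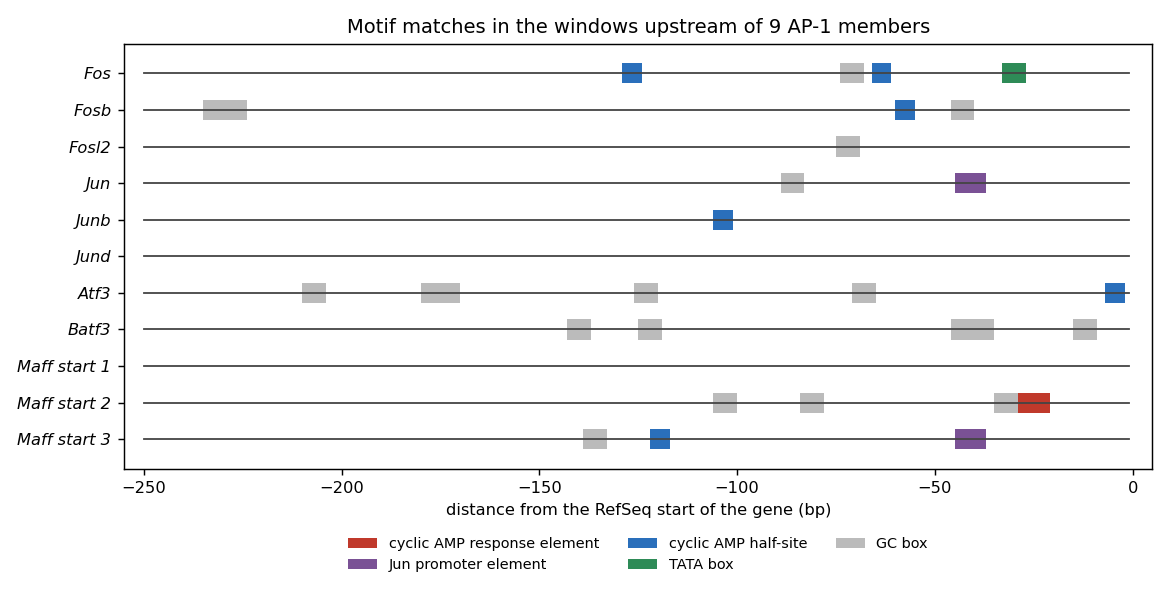
Motif matches (coloured bars) in 11 windows of 250 bases upstream of the RefSeq start of 9 AP-1 members, against the distance from the start in bp; red is TGACGTCA, purple TGACATCA, blue TGACG, green TATAAA and grey GGGCGG. Matches to TGACG lie in the windows of Fos, Fosb, Junb, Atf3 and Maff starts 2 and 3, and none lies in those of Fosl2, Jun, Jund, Batf3 or the first Maff start. Sequence outside the windows was not searched, which for Jund includes the bases just before its annotated gene start.

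Part of the AP-1 group was higher on the gels than on glass and another part was lower. Of 9 tested members, 4 were higher and 2 lower on 1 kPa than on glass, against a background of 23.0% of all tested genes higher and 22.0% lower (45.0% in either direction). On 20 kPa 3 were higher and 5 lower than on glass, against 22.3% and 19.6% of all genes (41.8% in either direction). On 20 kPa against 1 kPa none was higher and 8 were lower, where 8.94% and 9.92% of all genes passed (18.9% in either direction), and none was higher at an unadjusted p under 0.05, with DESeq2 or with limma-voom either. The count of 8 was 5 without 1 kPa replicate 2 or without 20 kPa replicate 1. The 3035 genes called between the gels were 1910 and 1680 without 1 kPa replicates 1 and 2, 1798 and 1870 without 20 kPa replicates 1 and 2, and 2000 with DESeq2. With total counts 60.8% of such calls were higher on 20 kPa, against 47.4% with TMM. On 1 kPa against glass 7 of the 9 had no overlap between their libraries, 5 higher and 2 lower, where 71.0% of all genes did not (36.2% higher and 34.8% lower). All 9 had none on 20 kPa against glass, 4 higher and 5 lower (67.5% of all genes, 35.5% higher and 32.0% lower). Between the gels 8 had none, all lower on 20 kPa (60.1% of all genes, 30.7% higher and 29.3% lower). The median log2 fold change of the tested members was 0.23 for 1 kPa against glass, -0.29 for 20 kPa against glass and -0.33 for 20 kPa against 1 kPa, and that of all genes was 0.00, 0.02 and 0.00. The comparisons share libraries, so their counts are not separate evidence. Across the 3 groups 8 of the 9 differed, where 51.2% of all genes did.

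Patterns over the 3 groups were counted after the values had been seen. Fos, Fosb and Junb were highest on 1 kPa, next on 20 kPa and lowest on glass, with all 3 pairs past the test, an order found for 3.73% of all genes. Fosl1, Fosl2, Jun, Jund and Maff were lower on 20 kPa than on both 1 kPa and glass, as were 2.83% of all genes. Those 5 differed in how 1 kPa stood to glass, since Fosl1 was called higher, Jun and Jund lower, and Fosl2 and Maff in neither direction. These counts of 3 and 5 ranged from 2 to 3 and from 2 to 5 over the alternatives, with the count of 5 at 3 without 1 kPa replicate 2 and at 2 without 20 kPa replicate 1.

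**Figure D2:**
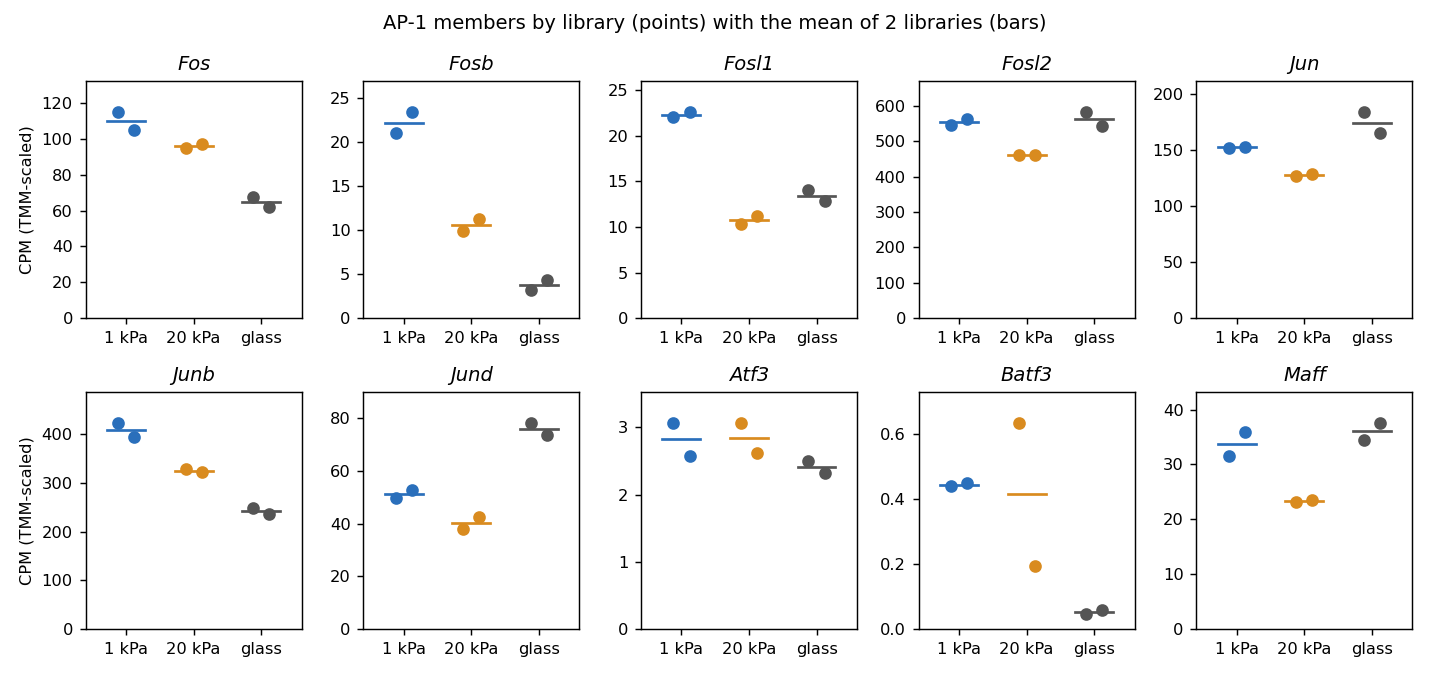
Level of each AP-1 member in CPM (TMM-scaled) in the 2 libraries of 1 kPa, 20 kPa and glass (points), with the mean as a bar and each vertical axis starting at 0. Fos, Fosb and Junb step down in the order 1 kPa, 20 kPa and glass, whereas Jun, Jund, Fosl2, Maff and Fosl1 have their lowest points on 20 kPa.

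Among the FOS genes, Fosb changed most. Fosb (ENSMUSG00000003545.4, chromosome 7 from 19302696 to 19310051, minus strand, GRCm38) had 21 and 23.4 CPM on 1 kPa, 9.94 and 11.2 CPM on 20 kPa, and 3.19 and 4.29 CPM on glass. No library of one group reached into the range of another. The log2 fold change was 2.58 on 1 kPa against glass (SE 0.15, edgeR adjusted p = 3.8e-15), 1.52 on 20 kPa against glass (SE 0.16, edgeR adjusted p = 4e-09) and -1.07 on 20 kPa against 1 kPa (SE 0.12, edgeR adjusted p = 8e-08). The summed counts behind it were 847 on 1 kPa, 435 on 20 kPa and 143 on glass, which give a ratio of 6 for 1 kPa over glass (95% counting interval 5 to 7.2).

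Fos (ENSMUSG00000021250.14, chromosome 12 from 85473890 to 85477273, plus strand), the prototype of the family, moved the same way by less. It had 115 and 105 CPM on 1 kPa, 94.7 and 96.9 CPM on 20 kPa, and 67.7 and 62.1 CPM on glass. Both gels lay above glass in every library, by a log2 fold change of 0.76 on 1 kPa (SE 0.07, edgeR adjusted p = 8e-11) and 0.56 on 20 kPa (SE 0.07, edgeR adjusted p = 4.3e-08). The difference between the gels was small, at -0.20 on 20 kPa against 1 kPa (SE 0.06, edgeR adjusted p = 0.031). That call was lost with total counts (0.14), with DESeq2 (0.074), without a filter (0.052) and without any one of the 4 gel libraries (0.06 to 0.42).

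Fosl1, which encodes FRA1 and is itself known as an AP-1 target, was the one member called in opposite directions on the 2 gels against glass. It had 22 and 22.6 CPM on 1 kPa, 10.3 and 11.2 CPM on 20 kPa, and 14 and 12.8 CPM on glass. The 1 kPa libraries were well above the others, and the 20 kPa libraries lay just under those of glass. The log2 fold change was 0.73 on 1 kPa against glass (SE 0.11, edgeR adjusted p = 1.5e-06) and -1.05 on 20 kPa against 1 kPa (SE 0.11, edgeR adjusted p = 1.4e-08). The fall on 20 kPa against glass was -0.32 (SE 0.12, edgeR adjusted p = 0.029). It missed the threshold with total counts (0.056), DESeq2 (0.09), no filter (0.06), and without 20 kPa replicate 1 (0.18) or glass replicate 1 (0.19). Of all tested genes 0.298% were higher on 1 kPa and lower on 20 kPa than on glass. Fosl1 (ENSMUSG00000024912.7, chromosome 19 from 5447547 to 5455946, plus strand) shares 57.2% of its exonic length with Ccdc85b on the other strand, and its counts are uncertain because strand use in counting is not given. Ccdc85b had log2 fold changes of 0.17 (edgeR adjusted p = 0.053) on 1 kPa against glass, -0.16 (0.077) on 20 kPa against glass and -0.33 (0.001) on 20 kPa against 1 kPa. Its signs were thus those of Fosl1. Its level was well above that of Fosl1, at 80.2 ± 1.8 CPM on 1 kPa, 63.7 ± 6.9 CPM on 20 kPa and 71.3 ± 3.6 CPM on glass. The part of its reads in the Fosl1 values was not tested.

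Fosl2, which encodes FRA2, had the largest count of the FOS genes and the smallest fold changes against glass. It had 545 and 564 CPM on 1 kPa, 462 and 460 CPM on 20 kPa, and 583 and 543 CPM on glass. The 1 kPa and glass libraries overlapped, and both 20 kPa libraries were below them. The log2 fold change on 1 kPa against glass was -0.02 (SE 0.06, edgeR adjusted p = 0.79), whereas Fosl2 fell on 20 kPa by 0.29 against glass (SE 0.06, edgeR adjusted p = 0.00014) and by 0.27 against 1 kPa (SE 0.06, edgeR adjusted p = 0.00096), on the log2 scale. The last call was lost without 1 kPa replicate 2 (0.064). Its gene (ENSMUSG00000029135.11, chromosome 5 from 32135801 to 32157842, plus strand) shares no exon with another.

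The JUN genes moved apart from each other. Junb (ENSMUSG00000052837.8, chromosome 8 from 84974484 to 84978718, minus strand), whose protein is a weaker activator than JUN at single response elements, had 424 and 395 CPM on 1 kPa, 328 and 323 CPM on 20 kPa, and 248 and 236 CPM on glass. The 3 groups did not overlap. Junb rose by 0.76 (SE 0.06, edgeR adjusted p = 3e-12) on 1 kPa and by 0.43 (SE 0.06, edgeR adjusted p = 3.9e-07) on 20 kPa against glass on the log2 scale, and 20 kPa lay below 1 kPa (-0.33, SE 0.06, edgeR adjusted p = 5.9e-05). Its exons overlap those of Prdx2 on the other strand over 7.52% of their length, and Prdx2 had log2 fold changes of -0.04 and 0.06 on 1 kPa and 20 kPa against glass (edgeR adjusted p = 0.63 and 0.43).

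Jun (ENSMUSG00000052684.5, chromosome 4 from 95049034 to 95052222, minus strand), the partner that JNK phosphorylates, had 152 and 153 CPM on 1 kPa, 127 and 129 CPM on 20 kPa, and 184 and 165 CPM on glass. Every gel library lay below both glass libraries, and both 20 kPa libraries below those of 1 kPa. The log2 fold change was -0.45 on 20 kPa against glass (SE 0.06, edgeR adjusted p = 4.2e-07) and -0.26 on 20 kPa against 1 kPa (SE 0.06, edgeR adjusted p = 0.0026), and the call between the gels was lost without 1 kPa replicate 2 (0.057) or 20 kPa replicate 1 (0.059). On 1 kPa against glass it was -0.19 (SE 0.06, edgeR adjusted p = 0.011), which was lost without 1 kPa replicate 1 (0.086), 1 kPa replicate 2 (0.092) or glass replicate 1 (0.13). The antisense gene Junos overlaps 7.28% of the exonic length of Jun. Its own level was 3.52 to 5.9 CPM as a group mean, far less than that of Jun.

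Jund (ENSMUSG00000071076.9, chromosome 8 from 70698949 to 70700616, plus strand), the JUN gene best known in resting cells, fell furthest of the JUN genes. It had 49.7 and 52.8 CPM on 1 kPa, 37.8 and 42.3 CPM on 20 kPa, and 78.3 and 73.6 CPM on glass, with no overlap between groups. The log2 fold change was -0.57 on 1 kPa (SE 0.07, edgeR adjusted p = 1.5e-07) and -0.93 on 20 kPa (SE 0.07, edgeR adjusted p = 1.3e-11) against glass. On 20 kPa against 1 kPa it was -0.36 (SE 0.08, edgeR adjusted p = 0.00095), a call lost without 20 kPa replicate 1 (0.066). The annotated gene Gm11175 on the other strand covers 52.6% of its exonic length and had 0 counts in all 6 libraries. As with Fosl1, the level of Jund is uncertain because it is not known how reads in the shared stretch were counted, and so are its rank and its share of the JUN family.

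**Figure D3:**
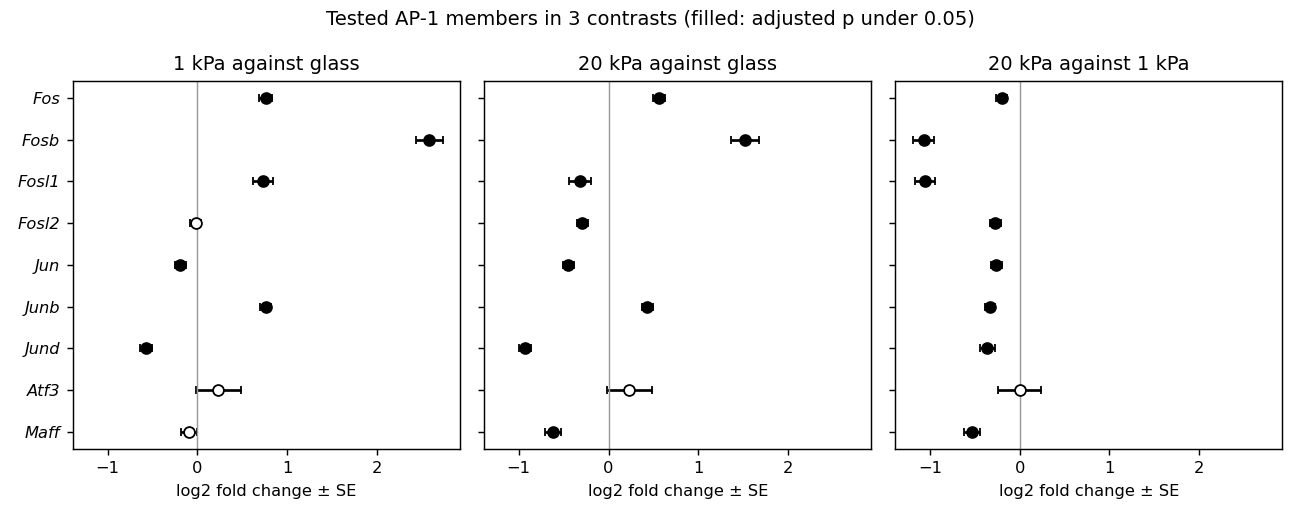
Log2 fold change with its SE (points and bars) of the 9 tested members in the contrasts 1 kPa against glass, 20 kPa against glass and 20 kPa against 1 kPa, filled where the adjusted p was under 0.05. Fosb lies furthest to the right on both gels, at 2.58 and 1.52, and in the third panel 8 points lie left of 0 and Atf3 lies at 0.

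Of the tested members outside the FOS and JUN genes, Maff and not Atf3 had calls, both of them lower on 20 kPa. Maff (ENSMUSG00000042622.15, chromosome 15 from 79346621 to 79359076, plus strand) had 31.6 and 35.9 CPM on 1 kPa, 23.2 and 23.5 CPM on 20 kPa, and 34.4 and 37.6 CPM on glass. The 1 kPa and glass libraries overlapped (log2 fold change -0.09, SE 0.09, edgeR adjusted p = 0.40). Maff fell on 20 kPa by 0.62 against glass (SE 0.09, edgeR adjusted p = 1.2e-06) and by 0.53 against 1 kPa (SE 0.09, edgeR adjusted p = 5.4e-05), on the log2 scale.

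Atf3, a stress-induced repressor, had 40 to 63 counts per library, or 3.07 and 2.58 CPM on 1 kPa, 3.07 and 2.62 CPM on 20 kPa, and 2.5 and 2.32 CPM on glass. No contrast passed (log2 fold change 0.23, SE 0.25, edgeR adjusted p = 0.49 on each gel against glass). At this depth the ratio over glass was 1.17 on 1 kPa (95% counting interval 0.88 to 1.6) and 1.18 on 20 kPa (0.89 to 1.6). The intervals cover counting error only and not the spread between libraries. A change of a size within them was neither shown nor excluded.

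Batf3 neighbours Atf3 on chromosome 1 (191097847 to 191108945, plus strand, against 191170296 to 191218039, minus strand, for Atf3) and is known for its part in dendritic cell development. It had 9 and 8 counts on 1 kPa, 13 and 4 on 20 kPa, and 1 and 1 on glass. The summed counts gave a ratio over glass of 8.61 on 1 kPa (95% counting interval 2 to 77) and 8.03 on 20 kPa (1.9 to 72), intervals that cover counting error only. Tested without the filter it passed on 1 kPa (log2 fold change 2.96, SE 1.01, edgeR adjusted p = 0.017) and on 20 kPa (2.87, SE 1.01, edgeR adjusted p = 0.024). With 1 library left out and the filter kept, Batf3 entered the test in 5 of 6 settings. A group then held 1 library, so 20 kPa replicate 1, where Batf3 was highest, could carry it past the filter. The log2 fold change over glass was 2.8 to 3.1 on 1 kPa and 2.7 to 3.47 on 20 kPa. Batf3 passed on a gel in some of these settings. Without one of the glass libraries it passed on neither gel, nor on 1 kPa without either library of that gel. The passes are no support, since entry rested on a library where the gene was high. Of 9 dendritic cell markers, 2 passed the filter and Xcr1 and Cd207 had 0 counts in every library. The list summed to 2.29 to 4.37 CPM on 1 kPa, 2.47 to 2.88 CPM on 20 kPa and 1.86 to 1.9 CPM on glass, and its part in the Batf3 counts was not tested.

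Levels were then compared between members per kilobase of annotated exon (CPM per kb). Junb was first in every group, at 178 ± 9 on 1 kPa, 141 ± 1.3 on 20 kPa and 105 ± 3.9 CPM per kb on glass, and Fosl2 was second at 57.3 ± 1.4, 47.7 ± 0.15 and 58.2 ± 2.9 CPM per kb (mean ± SD, n = 2). On glass the order went on with Jun at 54.6, whose libraries overlapped those of Fosl2, then Jund at 45.5, Fos at 27.6, Maff at 13.9, Fosl1 at 6.58, Atf3 at 1.12 and Fosb at 0.599 CPM per kb. On both gels Fos stood beside Jun, with overlapping libraries, at 46.6 and 47.9 CPM per kb on 1 kPa and 40.7 and 40.1 on 20 kPa. Per kb of the longest transcript instead, Fos lay above Jun in all gel libraries, at 54.3 and 49.8 against 47.8 and 47.9 CPM per kb on 1 kPa and at 44.9 and 46 against 39.8 and 40.4 on 20 kPa. On that scale Fosl2 (89.2 and 83) also lay clear of Jun (57.6 and 51.6 CPM per kb) on glass. Fosb passed Atf3 on both gels, with 3.55 against 1.31 CPM per kb on 1 kPa and 1.69 against 1.32 on 20 kPa, and Batf3 was last throughout.

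The make-up of both families is given as shares of the level per kb, with no test. Fos supplied 39.4% ± 2.1 of the FOS family's level per kb on 1 kPa, 42.7% ± 0.25 on 20 kPa and 29.7% ± 0.26 on glass, and Fosl2 supplied 48.4% ± 1.6, 50% ± 0.64 and 62.6% ± 0.18 (mean ± SD, n = 2). Fosb supplied 3% ± 0.25 on 1 kPa, 1.77% ± 0.13 on 20 kPa and 0.65% ± 0.17 on glass. Fosl1 supplied 9.25% ± 0.26 on 1 kPa, 5.54% ± 0.26 on 20 kPa and 7.08% ± 0.09 on glass. In the JUN family, the share of Junb was 69.3% ± 1.4 on 1 kPa, 68.8% ± 0.89 on 20 kPa and 51.2% ± 0.56 on glass. That of Jund was 12% ± 0.85, 11.6% ± 0.84 and 22.2% ± 0.14 in the same order, and that of Jun 18.7% ± 0.54, 19.5% ± 0.052 and 26.6% ± 0.7. For Fos, Fosb, Fosl2, Jun, Junb and Jund all gel libraries lay on one side of those of glass. Fosl1 did not overlap glass either. It lay above on 1 kPa (9.06% and 9.43%) and below on 20 kPa (5.36% and 5.72%), against 7.15% and 7.02% on glass. FOS over JUN, each summed per kb, was 0.462 ± 0.0088 on 1 kPa, 0.464 ± 0.00087 on 20 kPa and 0.453 ± 0.00063 on glass. An exact permutation test of such a value, with 2 libraries per group, cannot go below p = 0.333.

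**Figure D4:**
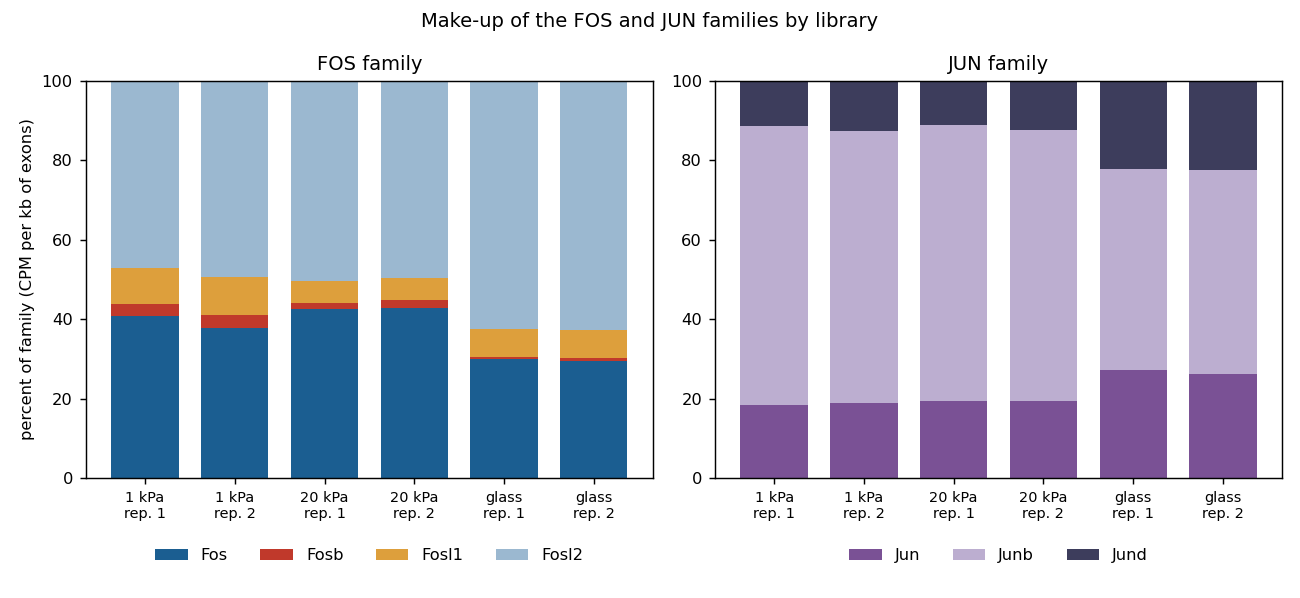
Share of each gene in the summed level per kb of exons of the FOS family (left) and the JUN family (right), in percent, for each of the 6 libraries. On the gels Fos and Junb take larger shares and Fosl2, Jun and Jund smaller ones than on glass, where Junb averages 51.2% of the JUN family.

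The genes around AP-1 were taken as lists, described by counts and medians. Beside them, 23.0% of all tested genes were higher and 22.0% lower on 1 kPa than on glass. On 20 kPa 22.3% were higher and 19.6% lower than on glass. On 20 kPa against 1 kPa 8.94% were higher and 9.92% lower. These shares are by edgeR at an adjusted p under 0.05. Of 21 tested textbook AP-1 targets (of 22 listed), 15 were higher and 3 lower on 1 kPa than on glass (median log2 fold change 1.66), and 14 were higher and 5 lower on 20 kPa (0.73). Between the gels 4 were higher and 16 lower on 20 kPa (median -0.60). The collagenase gene Mmp13 stood at 240 ± 11 CPM on 1 kPa, 44.7 ± 4.3 CPM on 20 kPa and 0.504 ± 0.19 CPM on glass, and Mmp3 fell by 2.21 (SE 0.06, edgeR adjusted p = 2.5e-21) on 20 kPa against 1 kPa on the log2 scale. The cytokine gene Il6 had 137 ± 5 CPM on 1 kPa, 46.2 ± 3.2 CPM on 20 kPa and 16.9 ± 2.6 CPM on glass, and Lif fell by 2.18 (SE 0.07, edgeR adjusted p = 4.9e-20) on 20 kPa against 1 kPa. Ccnd1, the cyclin of G1 phase, ran the other way, at 108 ± 5 CPM on 1 kPa, 131 ± 0.068 CPM on 20 kPa and 390 ± 19 CPM on glass. The list was drawn up with earlier results on some of these genes known. The lists that follow were also chosen with earlier results of these data known, so their counts are not independent of them.

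The other immediate early genes were mixed against glass. Of 29, 16 were higher and 8 lower on 1 kPa (median log2 fold change 0.27), and 12 were higher and 13 lower on 20 kPa (-0.04). On 20 kPa against 1 kPa none was higher and 19 were lower by edgeR (median -0.30), with 1 higher at an unadjusted p under 0.05 and 0 with DESeq2 or limma-voom. By edgeR 8.94% of all genes were higher and 9.92% lower between the gels. Nr4a2, a nuclear receptor, had 165 ± 2.5 CPM on 1 kPa, 119 ± 1.6 CPM on 20 kPa and 27.7 ± 0.78 CPM on glass, and Klf4, a zinc finger factor, had 80.8 ± 1.4, 54.9 ± 0.58 and 137 ± 11 CPM. Nr4a1 and the antiproliferative Btg1 rose on both gels, by 1.29 and 1.18 (SE 0.06 each) on 1 kPa and by 0.45 and 0.85 (SE 0.06 each) on 20 kPa against glass, on the log2 scale. Ier3 had 227 ± 2.5 CPM on 1 kPa, 105 ± 3 CPM on 20 kPa and 116 ± 3.2 CPM on glass, the same order as Fosl1.

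The MAP kinase genes upstream of AP-1 had medians close to 0 against glass. Of 23 tested MAP kinase genes, 8 were higher and 1 lower on 1 kPa than on glass (median log2 fold change 0.01), with 5 higher and 1 lower by DESeq2 and 8 higher and 4 lower at an unadjusted p under 0.05, and 1 was higher and 4 lower on 20 kPa (-0.04). On 20 kPa against 1 kPa none was higher and 6 were lower by edgeR and DESeq2, and none was higher at an unadjusted p under 0.05. Of all genes 8.94% were higher and 9.92% lower there by edgeR. Map3k5, which encodes the stress kinase ASK1, rose to 12.5 ± 0.46 CPM on 1 kPa and 7.75 ± 0.27 CPM on 20 kPa, against 5.39 ± 1.5 CPM on glass. Map2k1, the ERK kinase MEK1, rose on 1 kPa against glass (0.35, SE 0.06) and Mapkapk2, a kinase downstream of p38, did too (0.43, SE 0.06). On 20 kPa against glass they had log2 fold changes of 0.01 and -0.06 (edgeR adjusted p = 0.88 and 0.48). Among 7 genes of SRF and its cofactors, through which serum and actin signals reach Fos, 2 were lower and 1 higher on 1 kPa than on glass. On 20 kPa 3 were lower and none higher. These counts were the same by edgeR, DESeq2 and unadjusted p. Of all genes 22.0% were lower and 23.0% higher on 1 kPa, and 19.6% lower and 22.3% higher on 20 kPa. Srf itself had 69.2 ± 0.051 CPM on 1 kPa, 61 ± 3.6 CPM on 20 kPa and 101 ± 1.6 CPM on glass, and Fhl2, an SRF-binding LIM protein, 45.6 ± 4.8, 51 ± 1.2 and 125 ± 1.4 CPM. Srf was lower on both gels than on glass, and Fos and Fosb were higher. The part of SRF in the Fos and Fosb values was not tested, and RNA counts do not measure its activity.

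Other leucine zipper genes were taken by family. Of 10 tested MAF, CNC and BACH genes, 5 were higher and 2 lower on 1 kPa and 7 higher and 2 lower on 20 kPa than on glass. Mafg, another small MAF gene like Maff, rose by 0.62 (SE 0.06, edgeR adjusted p = 2.9e-09) on 1 kPa and by 0.26 (SE 0.07, edgeR adjusted p = 0.0015) on 20 kPa against glass on the log2 scale. Of 18 ATF, CREB and C/EBP genes, 7 were higher and 4 lower on 1 kPa and 8 higher and 4 lower on 20 kPa, with 5 and 6 higher by DESeq2. The lower calls were close to the share of all genes called lower. Cebpa had 89.1 ± 2.7 CPM on 1 kPa, 105 ± 3.2 CPM on 20 kPa and 23.6 ± 2.8 CPM on glass, and Cebpb, a regulator of inflammatory genes, 552 ± 6, 381 ± 13 and 272 ± 39 CPM. Batf, the relative closest to Batf3, had 4.98 ± 1.6, 2.62 ± 0.08 and 1.13 ± 0.37 CPM, while Jdp2, a repressor that pairs with JUN proteins, passed in none of the 3 contrasts (edgeR adjusted p = 0.12 to 0.59).

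**Figure D5:**
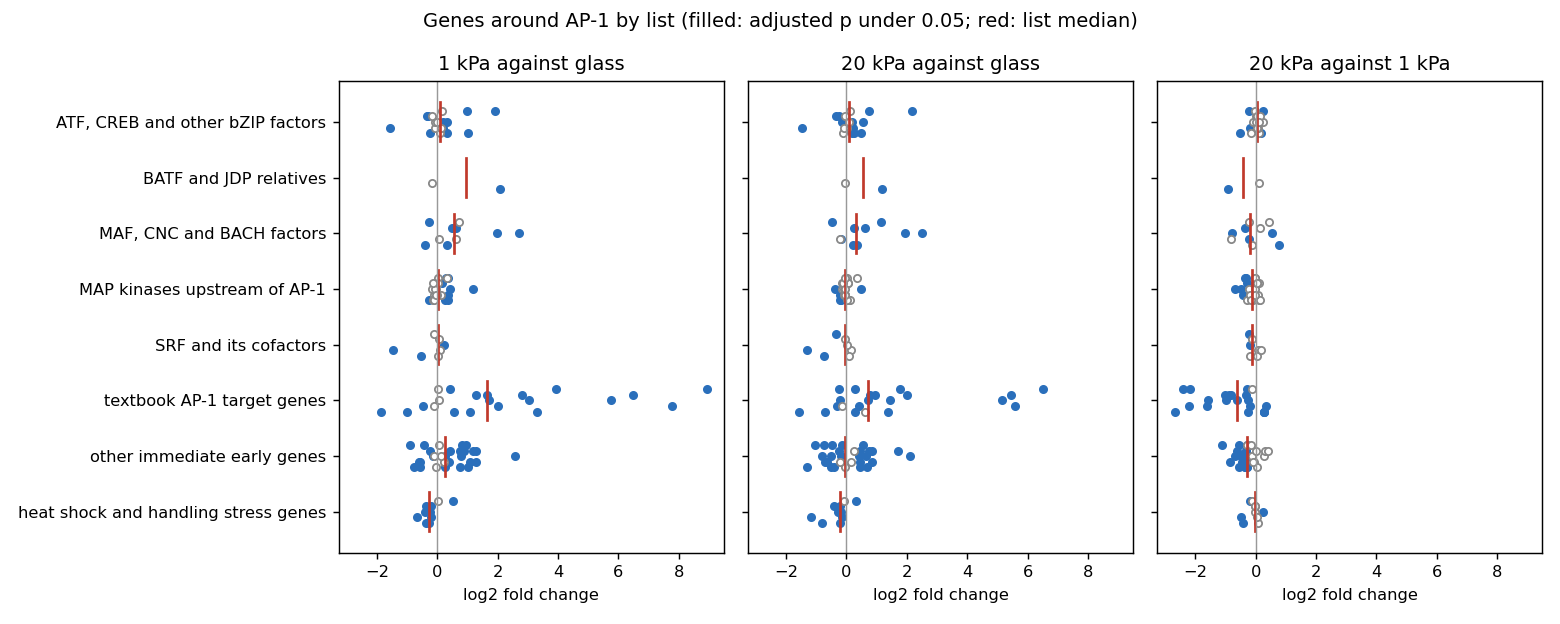
Log2 fold change of each tested gene (points, filled where the adjusted p was under 0.05) in 8 lists around AP-1, with the list median in red, for 1 kPa against glass, 20 kPa against glass and 20 kPa against 1 kPa. The textbook AP-1 targets have medians of 1.66, 0.73 and -0.60, and in the third panel the immediate early genes centre on -0.30.

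Heat shock and handling stress genes, which can move with immediate early genes when cells are harvested, were mostly lower on the gels. Of 10, 8 were lower and 1 higher on each gel than on glass, where 22.0% and 23.0% of all genes were on 1 kPa and 19.6% and 22.3% on 20 kPa. The higher one was Bag3 (0.52 on 1 kPa and 0.33 on 20 kPa, SE 0.06 each, on the log2 scale). The list had a summed level of 3030 CPM in both 1 kPa libraries, 3040 to 3060 CPM on 20 kPa and 3430 to 3600 CPM on glass. The part of harvest in the AP-1 values was not tested. Hspa1b had 42.3 ± 0.69 CPM on 1 kPa, 30.1 ± 0.42 CPM on 20 kPa and 68 ± 0.56 CPM on glass, though near-identical Hspa1a makes its counts uncertain. Of 11 macrophage markers 6 passed the filter, and the list summed to 57.6 to 57.7 CPM on 1 kPa, 26 to 28.9 CPM on 20 kPa and 16.5 to 18.3 CPM on glass, most of it Cd14 on 1 kPa (42.5 ± 1.7 CPM). Of the 6, 3 were higher and none lower on 1 kPa than on glass, where 23.0% and 22.0% of all genes were. On 20 kPa 2 were higher and 1 lower, where 22.3% and 19.6% of all genes were. The lower one was Csf1r (-0.89, SE 0.25, edgeR adjusted p = 0.005). The rest of the list failed the filter on low counts, though none was at 0 in all libraries. The part of this list in the AP-1 values was not tested. Skeletal muscle markers summed to 39.8 to 41.1 CPM on 1 kPa, 22 to 25.8 CPM on 20 kPa and 13.9 to 14.1 CPM on glass, and chondrocyte markers to 843 to 866, 1440 to 1490 and 554 to 589 CPM. Endothelial markers summed to 40 to 44.4 CPM on 1 kPa, 39.5 to 39.6 CPM on 20 kPa and 21.4 to 23 CPM on glass. Pericyte and smooth muscle markers summed to 222 to 231, 255 to 268 and 322 to 362 CPM, most of it Cspg4 (187 ± 4.8, 231 ± 8.2 and 299 ± 28 CPM). By gene the list did not follow that sum. Of its 8 markers 4 were higher and 2 lower on 1 kPa than on glass (median log2 fold change 0.73). On 20 kPa 3 were higher and 3 lower than on glass (median 0.14), beside the shares of all genes given above. Schwann cell and melanocyte markers summed to 23.3 to 26.6, 34.4 to 35.2 and 10.1 to 10.8 CPM. The part of these lists in the AP-1 values was not tested.

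The genes with the pattern closest to each member were taken by the root mean square difference of centred log2 CPM over the 6 libraries. For Junb these were Bcl6 (0.015) and the immediate early gene Ier2 (0.035), with 61.6 and 113 CPM on 1 kPa, 48.9 and 90.6 CPM on 20 kPa, and 35.5 and 66.5 CPM on glass. For Fosl1 they were Slc2a1 (0.061), which encodes the glucose transporter GLUT1, and Slco2a1 (0.079), which encodes a prostaglandin transporter. Slc2a1 stood at 234 CPM on 1 kPa, 122 CPM on 20 kPa and 146 CPM on glass. Fosb was least closely matched, by Adamts7 (0.13) and Parm1 (0.14), and Fos by Uba7 (0.027) and Rhbdd2 (0.032). Jun was matched by Ehbp1l1 (0.025) and Gpc1 (0.026), Jund by Bvht (0.036) and Chst1 (0.047), Fosl2 by Haus4 (0.014), and Maff by Pkmyt1 (0.048) and Rab32 (0.06). With 16093 tested genes, close matches over 6 libraries are a description only.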

How the data were processed

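The deposited values are whole-number raw counts per Ensembl gene, 1 column per library. Per the submitters' processing notes, reads were handled with Trim Galore and cutadapt, STAR 2.7.10b and featureCounts on mm10. The settings, the annotation and the use of strand were not given in the sources used here. Symbols, positions and exon lengths came from GENCODE M21 (GRCm38), matched for 91.4% of identifiers. Genes were kept with filterByExpr, scaled by TMM and tested in 1 quasi-likelihood fit of 6 libraries with group as the only term (edgeR 4.0.16, R 4.3.3, 3 residual degrees of freedom), with p-values adjusted by Benjamini-Hochberg across every gene tested and called under 0.05. SE is the absolute log2 fold change over the square root of F. Every adjusted p of a gene is from this fit unless another is named. Alternatives used DESeq2 1.42.0, limma 3.58.1, other scalings and filters, left-out libraries and a replicate block. The scripts were tested on simulated data. Members and lists were chosen with earlier results of these data known. Genes are named as members, as the 5 of a list with the smallest p over 3 groups, or as the 2 nearest patterns of a member. Overlapping genes and markers at 0 were named beside these. Intervals and floors of 3 counts cover counting error only. Some genes that the rule would name are not reported here.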

Additional observations from a re-analysis of the deposited data

Results flagged for a closer look

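Fosl1 was higher on 1 kPa and lower on 20 kPa than on glass, so its effects on the gels had opposite signs, and they differed by a log2 fold change of -1.05 for 20 kPa against 1 kPa (edgeR adjusted p = 1.4e-08). Its fall on 20 kPa against glass was lost under 5 of the alternatives, as given above. Its counts are uncertain because of the exons shared with Ccdc85b, which had the same signs at a higher level.

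Ier3 also had opposite signs, 0.96 on 1 kPa and -0.15 on 20 kPa against glass, and differed by -1.12 on 20 kPa against 1 kPa (edgeR adjusted p = 3.1e-15). Maf, a large MAF factor, had the reverse order, at 47.3 ± 3.1 CPM on 1 kPa, 80.1 ± 0.23 CPM on 20 kPa and 62.5 ± 1.4 CPM on glass, with a difference of 0.76 for 20 kPa against 1 kPa (edgeR adjusted p = 1e-09).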

How the results depend on the processing

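Of 378 log2 fold changes of members under an alternative, 352 kept their direction and their side of the threshold, 19 lost the call and 7 changed sign. The sign changes were those of Fosl2 on 1 kPa against glass (0 without 1 kPa replicate 1 and 0.03 without glass replicate 1, in a range of -0.07 to 0.03 with 1 library left out) and of Atf3 on 20 kPa against 1 kPa (-0.01 with RLE factors, 0 with DESeq2 and the stricter filter, and -0.11 without 1 kPa replicate 2 or 20 kPa replicate 1, in a range of -0.11 to 0.14), neither called in these settings. The cause was not tested. Genes called on 20 kPa against 1 kPa numbered 3035 and came to 2000 with DESeq2 and 1680 to 3824 with 1 library left out. With total counts 60.8% of these calls were higher on 20 kPa, against 47.4%. Members called in that contrast ranged from 5 to 8 with 1 library left out, and members lowest on 20 kPa from 2 to 5. Per longest transcript instead of all exons, mean shares over the 6 libraries were 31.6% against 37.3% for Fos, 2.27% against 1.81% for Fosb, 6.03% against 7.29% for Fosl1, 60.1% against 53.7% for Fosl2, 18.5% against 21.6% for Jun, 68.4% against 63.1% for Junb and 13.1% against 15.3% for Jund. Same-numbered libraries did not deviate together (correlations -0.05 to -0.02), and with the replicate block 2862 genes were called on 20 kPa against 1 kPa and no call of a member changed. Depth limited Atf3 and Batf3.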
